A study of Danio rerio with 16 samples.

Results

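Zebrafish embryos of a wfikkn1 mutant line that had been exposed to TCDD were set against wild-type embryos with the same exposure, across all expressed genes. The comparison used 7 of the 14 libraries in the count table, with 4 of wfikkn1 mutants and 3 of the Tropical 5D wild type. TCDD (2,3,7,8-tetrachlorodibenzo-p-dioxin) was given at 1 ng/mL for 1 h at 4 hours post fertilization (hpf), and RNA was taken from whole embryos at 48 hpf. Each library came from a pool of 9 embryos grown in a dish of its own. The same lines exposed to 0.1% DMSO, with 4 mutant and 3 wild-type libraries, show which differences between the lines were also present without TCDD. The labels list 16 samples. The 2 wild-type samples numbered 2, one per exposure, were not analysed here. The labels name neither the mutant allele nor the number of founders of the line, and the number of parents behind each pool is not given, so p-values measure the spread between these pools.

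Wfikkn1 is a secreted protein with several protease-inhibitor-like domains that is known from mammals to bind myostatin and GDF11, ligands of the TGF-beta family. These ligands act through pairs of type I and type II serine/threonine kinase receptors, which phosphorylate SMAD transcription factors. TCDD binds the aryl hydrocarbon receptor (AHR), a transcription factor that pairs with ARNT and turns on genes of xenobiotic metabolism such as cyp1a. In zebrafish, ahr2 is the receptor known to mediate the developmental toxicity of TCDD, which affects the heart, the jaw cartilage and the fins.

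The targeted gene was low in every mutant library. The mutants exposed to TCDD had 14, 15, 21 and 22 wfikkn1 counts, against 214, 454 and 520 counts in wild type exposed to TCDD. In CPM, counts scaled to the size of the library, this was 0.758 ± 0.192 in mutants (SD, n = 4) and 17.2 ± 7.21 in wild type (SD, n = 3), and values written with ± in CPM below are means and SDs over the same numbers of libraries. The highest mutant library lay far below the lowest wild-type library. The log2 fold change was -4.50 ± 0.36 (SE, as for all log2 fold changes below), with an adjusted p of 4.16e-07 in edgeR's quasi-likelihood test. In DMSO the mutants had 0, 0, 4 and 3 counts, against 10, 12 and 19 counts in wild type, a log2 fold change of -2.95 ± 0.68 with adjusted p = 0.00737. At most 3 counts, taken here as the limit of detection, were held by 3 of these 4 mutant libraries. The size of the fall in DMSO is therefore not a measured fold. The difference between the 2 line effects was not called, at -1.55 on the log2 scale with adjusted p = 0.369. For the same reason this does not show that the 2 line effects were alike.

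Total counts ran from 21521768 to 25588314 in the 4 mutant TCDD libraries and from 22292795 to 24836972 in the 3 wild-type TCDD libraries. The 20098 genes with enough counts to be tested held 99.9% of all counts. Libraries of the same group differed among themselves along an axis shared by many genes, which held 29.1% of the variance within groups. A score on that axis, the projection of each library's log2 CPM without subtraction of its group's mean, was -28.6, -30.6, -12.3 and -27.1 in mutant TCDD libraries and 31, 16.6 and 20.9 in wild-type TCDD libraries. The scores of the 2 groups did not overlap, so under TCDD the line and this score moved together. In DMSO the scores overlapped, with 26.9, 13.4, -10.4 and 32.2 in mutants and -0.962, 10.3 and -41.3 in wild type. There every mutant library but replicate 3 lay above every wild-type library, the opposite order to TCDD. What the axis stands for is not known from the labels, and its part in the results below was not tested, so the number of genes called with the score as a term in the fit is given beside each gene group, whether or not the same genes were called without it.

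Of the 20098 genes tested, 2157 were higher in mutants under TCDD (10.7%) and 3395 were lower (16.9%), counting adjusted p under 0.05. Together this was 27.6% of the genes tested, in 37.1% the libraries of the 2 lines did not overlap, and the median log2 fold change over all genes was 0.002. The falls were larger than the rises. Their median log2 fold change was -0.975, against 0.496 for the rises. At least 2-fold changes were called in 378 genes (1.88%) that were higher and 1646 (8.19%) that were lower, and at least 4-fold changes in 100 higher and 650 lower genes. Genes that fell were expressed at a median of 3.17 (mean log2 CPM), genes that rose at 4.64, and all tested genes at 3.21. With the library score as a term, 451 genes were called higher and 780 lower, of which 413 and 702 were among the calls above. Without wild-type TCDD replicate 1 the number higher was 1430 and the number lower 2609. The authors' deposited table for this comparison listed 2107 genes as higher and 3348 as lower, and 5395 of its 5455 genes were called here in the same direction.

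The line effect under TCDD held genes that differed between the lines with or without TCDD, and genes that differed in another way. In DMSO, where no library is shared with the TCDD comparison, 1650 genes were higher in mutants (8.21%) and 1728 lower (8.6%). Without wild-type DMSO replicate 4 these were 928 and 1136, and the number higher was 1039 and 1053 without mutant DMSO replicates 1 and 4. Called higher under both exposures were 629 genes, which is 29.2% of the genes higher under TCDD and 38.1% of those higher in DMSO. Called lower under both were 783 genes, 23.1% of those lower under TCDD and 45.3% of those lower in DMSO. The difference between the line effects was itself called in 372 genes in the positive direction (1.85%) and 2044 in the negative direction (10.2%). Of the 3395 genes lower under TCDD, 1790 (52.7%) had a called negative difference, and 483 of the 3395 were called higher in mutants in DMSO. Of the 2157 genes higher under TCDD, 169 (7.83%) had a called positive difference. Genes lower under TCDD had a median axis weight at the 86.3 percentile of the genes that define the score, against 42.8 for genes higher under TCDD and 48.6 for genes lower under both exposures. These percentiles rank the weights with their sign, so a low one may be a strong weight in the opposite direction. In edgeR with the score as a term, no difference between the line effects was called (0 genes). That fit cannot decide whether differences remain. The score was lower in mutants under TCDD and mostly higher in mutants in DMSO, so it runs along the difference tested. The 372 positive differences were 132 without wild-type TCDD replicate 1, 155 without mutant TCDD replicate 2, 234 without mutant TCDD replicate 3 and 237 without mutant TCDD replicate 4. Among DMSO libraries they were 160 without wild-type replicate 4, 222 and 224 without mutant replicates 2 and 4, and 609 without wild-type replicate 1.

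**Figure D1:**
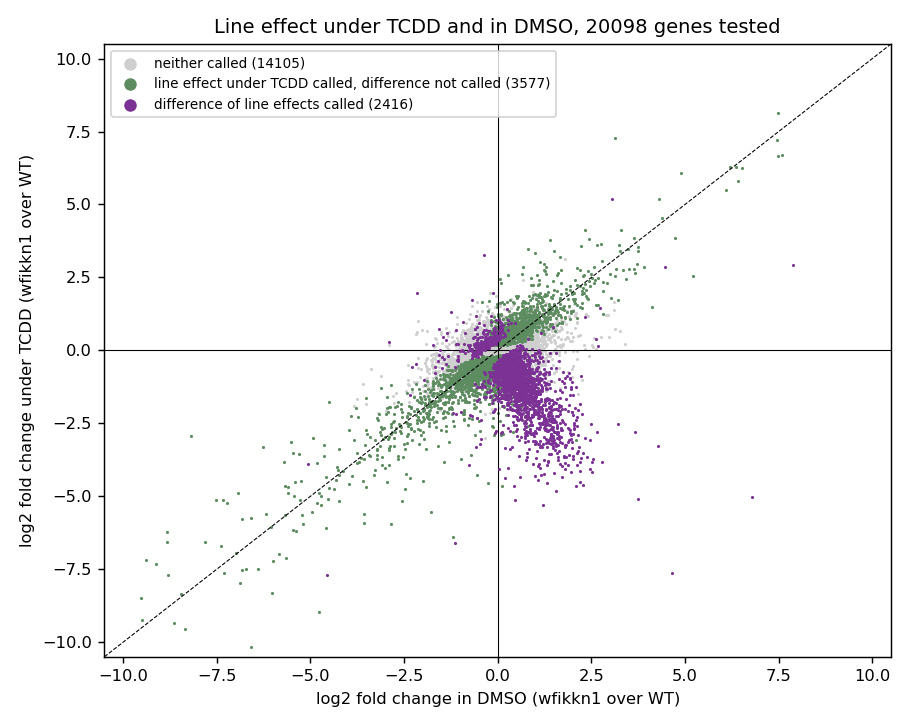
Log2 fold change of wfikkn1 over wild type under TCDD (vertical) and in DMSO (horizontal) for each of the 20098 genes tested, with a dashed line where both are equal. Genes with a called difference (purple, 2416) lie mostly in the lower right, where mutants were lower under TCDD and level or higher in DMSO. Of the 100 genes at least 4-fold higher under TCDD 77 were also called higher in DMSO, and of the 650 at least 4-fold lower 208 were called lower in DMSO and 388 had a called difference.

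The largest rises were mostly shared with DMSO. Among the 12 named genes with the largest rise, all with adjusted p between 3.08e-07 and 0.00373, 10 were also called higher in DMSO and none had a called difference. They were picked among genes without overlap between the lines under TCDD, so that separation is no result. Casp6, an effector caspase of cell death, had 5.17, 4.06, 8.52 and 4.11 CPM in mutants, against 0.179, 0.119 and 0.138 CPM in wild type. The wild-type libraries held 4, 3 and 3 counts of casp6, so it was close to the limit of detection there, and its log2 fold change was 5.19 ± 0.40. Phf5a, a component of the SF3b complex of the spliceosome, had 4.86, 12.3, 13.2 and 9.08 CPM in mutants, against 0.625, 0.516 and 0.920 CPM in wild type. CCDC134 had 28.4, 29.5, 25.9 and 29.8 CPM in mutants, against 7.37, 4.33 and 3.54 CPM in wild type. These 3 genes rose by 5.19, 3.84 and 2.49 on the log2 scale under TCDD, and by 4.30, 4.74 and 2.67 in DMSO.

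Also called under both exposures were the rises of znf1094 (4.12 ± 0.56), a zinc finger gene, and arhgef28b (2.87 ± 0.29), a guanine nucleotide exchange factor. The same held for dicp1.16 (2.79 ± 0.29), an immunoglobulin-domain receptor gene, tnrc6c2 (2.43 ± 0.34), of the family of Argonaute partners in microRNA silencing, tspan4b (2.38 ± 0.30), a tetraspanin, and cdh29 (2.30 ± 0.33), a cadherin. The 2 genes without a call in DMSO were ndufs7, a subunit of respiratory complex I, and hpxa, a heme-binding plasma protein. Ndufs7 had 12.2, 7.45, 12.4 and 12 CPM in mutants, against 0.402, 3.93 and 2.21 CPM in wild type, a log2 fold change of 2.32 ± 0.53, and its difference from DMSO missed the threshold (adjusted p = 0.0514). Hpxa had 2.60, 3.48, 1.3 and 5.70 CPM in mutants, against 0.715, 0.318 and 1.01 CPM in wild type. With the library score as a term, ndufs7 was not called (adjusted p = 0.0691), while the other genes of this paragraph and casp6, phf5a and CCDC134 were. Among the genes of smallest adjusted p were also gtf3c2, a subunit of the RNA polymerase III factor TFIIIC, cldnf, a claudin of tight junctions, and pafah1b3, a catalytic subunit of platelet-activating factor acetylhydrolase. Gtf3c2 averaged 30.9 ± 1.88 CPM in mutants and 13.4 ± 1.53 CPM in wild type, cldnf 73.4 ± 3.71 and 35.3 ± 2.53 CPM, and pafah1b3 246 ± 10.4 and 101 ± 17.0 CPM, in the same order of groups.

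Several of the largest falls left almost no reads in mutants. Mhc1uba, a class I major histocompatibility gene, had 0 counts in all 4 mutant TCDD libraries, against 3.57, 4.53 and 2.34 CPM in wild type, which is at least 27.6-fold lower when 3 counts per library are taken as the limit. In DMSO it had 1 count over the 4 mutant libraries. Tia1, an RNA-binding protein of stress granules, had 0, 1, 3 and 1 counts in mutants, against 162, 267 and 135 counts in wild type. Bsdc1 had 1, 4, 2 and 3 counts in mutants, against 190, 204 and 111 counts in wild type. Ldb2b, a cofactor of LIM-homeodomain proteins, had 0.194, 0.265, 0.278 and 0.272 CPM in mutants, against 15.3, 11.6 and 10.3 CPM in wild type. Tapt1b had 0.233, 0.221, 0.232 and 0.427 CPM in mutants, against 8.71, 6.95 and 6.02 CPM in wild type. Fabp7b, a brain-type fatty acid binding protein, averaged 0.194 ± 0.142 CPM in mutants and 6.97 ± 2.30 CPM in wild type. The largest falls were picked among genes without overlap between the lines under TCDD, so that separation is no result. Each of these genes was also called lower in DMSO.

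The log2 fold changes were -5.60 ± 0.24 for ldb2b, -5.17 ± 0.50 for fabp7b and -4.66 ± 0.26 for tapt1b. For tia1 and bsdc1 the fit gave -7.12 ± 0.44 and -6.04 ± 0.36. The mutant levels of tia1, bsdc1 and fabp7b were at or close to the limit of detection, which was 0.116 to 0.139 CPM in the mutant TCDD libraries. The size of the falls of these 3 genes is therefore not a measured fold. Ldb2b and tapt1b lay above that limit but not far from it. Reads at the locus of the microRNA gene dre-mir-203b averaged 0.281 ± 0.334 CPM in mutants and 6.32 ± 0.785 CPM in wild type, with no count in 2 of the 4 mutant libraries. These are reads of poly(A)-selected RNA and not of the mature microRNA. Of the 12 largest falls, 10 were called lower in DMSO too, and these 10 kept their call with the library score as a term. The other 2 ran the other way in DMSO. CSRNP3, a nuclear transcriptional activator, had 0.272, 0.309, 0.417 and 0.504 CPM in mutants, against 15.7, 6.83 and 6.21 CPM in wild type under TCDD, but 5.22, 1.72, 0.586 and 6.76 CPM in mutants, against 1.16, 1.11 and 0.223 CPM in wild type in DMSO. Tfe3a, a transcription factor of lysosome biogenesis, averaged 0.473 ± 0.255 CPM in mutants and 10.8 ± 5.12 CPM in wild type under TCDD. Both had a called difference (-6.74 and -6.71 on the log2 scale, adjusted p = 0.000216 and 0.000202), both had an axis weight at the 99.9 percentile, and neither was called with the score as a term (adjusted p = 0.236 and 0.0917).

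**Figure D2:**
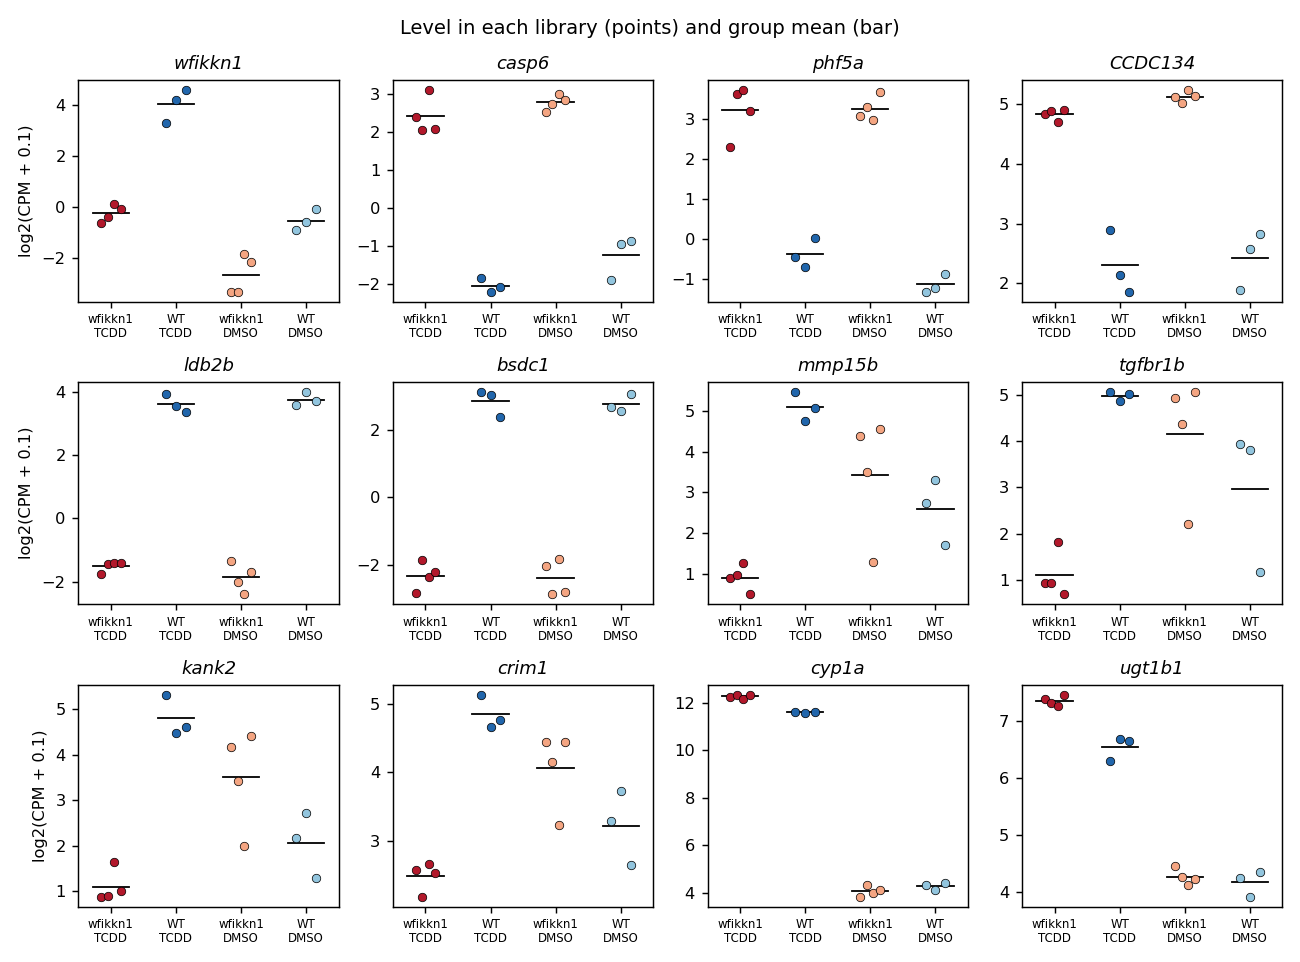
Level of 12 genes as log2(CPM + 0.1) in each library (points) with the group mean (bar), for wfikkn1 and wild type under TCDD and then in DMSO. Casp6, phf5a, CCDC134, ldb2b and bsdc1 separate the lines under both exposures. They were picked among genes without overlap under TCDD, so their separation there is no result. Mmp15b, tgfbr1b, kank2 and crim1 are lower in mutants than in wild type under TCDD and not in DMSO. Cyp1a and ugt1b1 are high in both lines under TCDD and highest in mutants.

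For 2 of the genes with the largest changes, the name stands on 2 gene IDs. Reads may have been assigned to either ID, which was not tested, so their separate values are uncertain. The name rrm2, the small subunit of ribonucleotide reductase, stands on 2 gene IDs. Genes were placed by name, so whether both IDs lie on the same chromosome is not known here. On the first (ENSDARG00000020711) mutants had 171, 202, 188 and 176 CPM, against 11, 23.5 and 53.1 CPM in wild type, and on the second (ENSDARG00000078069) mutants had 1.67, 1.54, 2.41 and 1.94 CPM, against 95.5, 102 and 82.3 CPM in wild type. Summed over both IDs, rrm2 was 186 ± 13.8 CPM in mutants (SD, n = 4) and 123 ± 14.7 CPM in wild type (SD, n = 3). The summed ranges, 173 to 203 CPM in mutants and 107 to 135 CPM in wild type, did not overlap. Actc1a, an actin of the heart, likewise stands on 2 IDs. On the first (ENSDARG00000042535) it averaged 262 ± 48.0 CPM in mutants and 95.8 ± 53.4 CPM in wild type, and on the second (ENSDARG00000076126) 2.13 ± 0.632 CPM in mutants and 116 ± 19.7 CPM in wild type. The sum was 265 ± 48.2 CPM in mutants and 212 ± 70.1 CPM in wild type, and these ranges (226 to 329 and 153 to 289 CPM) overlapped. Of 341 names on several tested IDs, 5 had opposite calls under TCDD. Names that differ only in letter case were counted as different names.

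The 8 genes named for their difference, those of smallest p among named genes whose mean log2 CPM reached 1, were called lower in mutants under TCDD and higher in mutants in DMSO. Their differences had an adjusted p of 0.000199 each. In all, 120 genes had an adjusted p no higher than that, and 97 of these were called higher in mutants in DMSO. Kank2, a regulator of focal adhesions, had 1.75, 1.76, 3.01 and 1.90 CPM in mutants, against 39.7, 22 and 24.3 CPM in wild type under TCDD. In DMSO it had 18.0, 10.6, 3.88 and 21.1 CPM in mutants, against 4.41, 6.49 and 2.36 CPM in wild type. The lines did not overlap under TCDD and overlapped in DMSO through mutant replicate 3, with line effects of -3.77 ± 0.45 under TCDD and 1.60 ± 0.44 in DMSO on the log2 scale (both called). Crim1, a membrane protein that binds BMP ligands, had 5.83, 4.45, 6.25 and 5.66 CPM in mutants, against 35.0, 25.2 and 27.2 CPM in wild type under TCDD. Its line effect was -2.39 ± 0.26 under TCDD and 0.86 ± 0.26 in DMSO. Itga9, an integrin subunit, averaged 13.1 ± 2.2 CPM in mutants and 41.6 ± 2.73 CPM in wild type under TCDD.

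The line effects under TCDD and in DMSO were -2.78 ± 0.36 and 1.5 ± 0.35 for ism2a, a secreted isthmin, and -2.36 ± 0.30 and 1.27 ± 0.30 for sh3pxd2aa, an adaptor of podosomes. They were -1.58 ± 0.18 and 0.79 ± 0.18 for nfixb, a transcription factor, and -1.40 ± 0.19 and 1.03 ± 0.20 for dcc, a netrin receptor of growing axons. For nyap2b, a neuronal adaptor of phosphoinositide 3-kinase, they were -1.08 ± 0.12 and 0.41 ± 0.12. With the library score as a term the line effect of the 8 genes under TCDD was called but smaller, at -1.70 for kank2, -1.23 for crim1, -1.18 for ism2a, -1.20 for sh3pxd2aa, -1.05 for nfixb, -0.98 for itga9, -0.83 for nyap2b and -0.68 for dcc. The differences were not called in that fit, which cannot decide about them because the score runs along the same difference. The axis weights of the 8 genes lay between the 83.1 percentile (nyap2b) and the 99.6 percentile (kank2). In DMSO, mutant replicate 3, the mutant DMSO library with a negative score, had the lowest mutant value of kank2, ism2a, crim1, sh3pxd2aa, itga9, nfixb, dcc and nyap2b.

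Genes of the AHR battery, a list of genes linked to the receptor or to TCDD, were on balance higher in mutants. Whether TCDD induced each member was not tested here. Of 18 tested, 9 rose (50.0%, against 10.7% of all tested genes), 1 fell (wfikkn1 itself) and 8 did not pass the test. The median log2 fold change was 0.41, against 0.002 over all genes. In DMSO 2 were higher and 2 lower, and the difference was called as positive in 5. Summed CPM of the list ran from 6147 to 6946 in mutants and from 4584 to 4718 in wild type under TCDD, but from 239 to 251.5 in mutants and from 230.7 to 283.8 in wild type in DMSO. Most of the sum under TCDD was cyp1a, and without it the list ran from 1557 to 1752 in mutants and from 1492 to 1532 in wild type under TCDD. Cyp1a, the cytochrome P450 most used as a readout of AHR activity, had 4900, 5160, 4590 and 5220 CPM in mutants, against 3190, 3090 and 3130 CPM in wild type. Cyp1a was thus expressed in a narrow range within each line, and rose by 0.66 ± 0.09 in mutants (adjusted p = 9.15e-05). In DMSO it averaged 16.7 CPM in mutants and 19.6 CPM in wild type, with a line effect of -0.23 ± 0.10 (adjusted p = 0.14), and the difference was 0.89 (adjusted p = 0.000372).

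Among the enzymes that conjugate xenobiotics, ugt1b1, a glucuronosyltransferase, had 166, 158, 152 and 175 CPM in mutants, against 78.6, 102 and 100 CPM in wild type, a rise of 0.80 ± 0.11 with a difference of 0.71 (adjusted p = 0.00658). Sult6b1, a sulfotransferase, averaged 112 ± 5.48 CPM in mutants and 72.3 ± 0.746 CPM in wild type, and its rise of 0.63 ± 0.16 was not told apart from that in DMSO (adjusted p = 0.0781). Tiparp, a poly(ADP-ribose) polymerase that dampens AHR activity in mammals, averaged 45.7 ± 2.63 CPM in mutants and 34.0 ± 0.918 CPM in wild type. Foxq1a, a forkhead transcription factor, had 51.5, 56.5, 62.1 and 66.2 CPM in mutants, against 30.6, 35.8 and 33.6 CPM in wild type, and rose by 0.83 ± 0.13 under TCDD and by 0.70 ± 0.16 in DMSO. These 4 genes and cyp1a had no overlap between the lines under TCDD. Of all 18 tested genes of the AHR battery, 11 were higher and 1 was lower without overlap. Among all tested genes the shares without overlap were 16.4% higher and 20.8% lower.

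Cyp1d1, nqo1, gstp1 and nfe2l2b rose by 0.40, 0.53, 0.38 and 0.45 on the log2 scale, and each lost its call when 1 of several libraries was left out. Cyp1d1 also lost it with the replicate number as a block (adjusted p = 0.0657). Without wild-type TCDD replicate 4, cyp1d1 had an adjusted p of 0.143 and nqo1 of 0.0701. Without wild-type TCDD replicate 1, gstp1 had an adjusted p of 0.115, and without wild-type TCDD replicate 3, nfe2l2b had 0.0994. Mutant libraries also decided some calls, with adjusted p of 0.0829 for cyp1d1 without mutant replicate 3, 0.0557 for cyp1d1, 0.06 for nqo1 and 0.0584 for gstp1 without mutant replicate 2, 0.0777 for nfe2l2b without mutant replicate 1, and 0.0568 for nqo1 without mutant replicate 4. For nqo1 it was 0.0529 without wild-type TCDD replicate 3. Nqo1, gstp1 and nfe2l2b, a quinone reductase, a glutathione transferase and an NRF2 paralog, belong to the antioxidant response as well.

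The other 8 members of the list did not pass the test. Cyp1c1 had 753, 622, 573 and 724 CPM in mutants, against 838, 702 and 700 CPM in wild type, and cyp1c2 had 206, 218, 204 and 212 CPM in mutants, against 174, 203 and 194 CPM in wild type. Their line effects under TCDD were -0.16 ± 0.11 and 0.14 ± 0.11. Cyp1c1 was lower in mutants in DMSO (-0.70 ± 0.12), so that the difference was called as positive (0.54, adjusted p = 0.0396) although its level under TCDD was not. Ahrra and ahrrb, repressors of the receptor, had line effects of 0.21 ± 0.15 and -0.63 ± 0.48. Ugt1ab (0.20 ± 0.13), foxq1b (0.43 ± 0.18), fgf7 (0.22 ± 0.19) and ctsl.1 (0.67 ± 0.27) also did not pass. Ctsl.1, a cathepsin, was called when only the 2 groups were fitted (adjusted p = 0.0125), and foxq1b with DESeq2 (adjusted p = 0.0486). With the library score as a term, 4 members of the list were called higher (cyp1a, ugt1b1, foxq1a and tiparp).

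Of the 8 receptors and partners tested, the main receptor ahr2 was lower, as was ahr1b. Ptges3b, a co-chaperone of the receptor complex, was higher. These were 2 lower and 1 higher of 8, where 16.9% of all tested genes were lower and 10.7% higher. So few calls do not show that this list differed from all tested genes. Ahr2 had 416, 382, 398 and 422 CPM in mutants, against 513, 465 and 469 CPM in wild type, a fall of 0.25 ± 0.08 (log2; adjusted p = 0.0298). That call was lost without wild-type TCDD replicate 1 (adjusted p = 0.134), mutant replicate 2 (0.0821) or mutant replicate 3 (0.059). It was also lost with RLE scaling (0.0585), a filter at 1 CPM (0.0666), DESeq2 (0.0548), no filter (0.0834), the replicate number as a block (0.0682) or the score as a term (0.899). Ahr1b averaged 24.0 ± 2.07 CPM in mutants and 34.0 ± 2.69 CPM in wild type, a log2 fold change of -0.50 ± 0.10. Ptges3b averaged 71.9 ± 5.49 CPM in mutants and 51.5 ± 5.35 CPM in wild type. The partner arnt2 averaged 168 ± 15.5 CPM in mutants and 168 ± 15.1 CPM in wild type. The list had 1 gene lower without mutant replicate 2 or 3 or wild-type TCDD replicate 1, 2 higher without wild-type TCDD replicate 4, and none called with the score as a term.

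Of 32 tested genes for Wfikkn proteins, their ligands and the TGF-beta pathway, 10 fell (wfikkn1 included), 1 rose and 21 did not pass. The shares were 31.2% lower and 3.12% higher, against 16.9% and 10.7% of all tested genes, with a median log2 fold change of -0.07. Of 12 receptor genes in the list 8 fell and none rose. Tgfbr1b, a type I receptor for TGF-beta, had 1.79, 1.81, 3.43 and 1.51 CPM in mutants, against 33.4, 29.3 and 32.6 CPM in wild type. In DMSO it had 30.8, 20.8, 4.51 and 33.3 CPM in mutants, against 15.3, 14 and 2.14 CPM in wild type. The mutants were thus far below wild type under TCDD (-3.91 ± 0.59), and the groups overlapped in DMSO (1.09 ± 0.54). Tgfbr1a, its paralog, averaged 1.02 ± 0.211 CPM in mutants and 4.13 ± 0.535 CPM in wild type (-2.02 ± 0.33).

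Bmpr2b, a type II receptor for BMP ligands, had 4.20, 6.57, 4.72 and 4.85 CPM in mutants, against 45.2, 25.5 and 27.2 CPM in wild type under TCDD. Its line effect was -2.68 ± 0.36 under TCDD and 1.43 ± 0.37 in DMSO. Bmpr2a averaged 54.0 ± 7.22 CPM in mutants and 108 ± 1.41 CPM in wild type (-0.99 ± 0.18). Of the activin and myostatin receptors, acvr2ba averaged 30.1 ± 4.48 CPM in mutants and 70.7 ± 22.7 CPM in wild type, and acvr1bb 13.4 ± 2.51 CPM in mutants and 29.7 ± 4.66 CPM in wild type. Acvr2ab and acvr2bb had log2 fold changes of -1.02 ± 0.22 and -0.68 ± 0.15. All 8 of these receptor genes and the ligand tgfb2 had a called negative difference from DMSO, and the receptor genes had axis weights between the 92.5 and 99.9 percentiles. With the score as a term tgfbr1b (-1.21, adjusted p = 0.0474) and bmpr2b (-1.17, adjusted p = 0.0479) were called and the other 6 were not. That fit called 3 members of the list lower, wfikkn1 among them.

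Among the ligands and signal transducers 2 were called. Tgfb2 fell by 0.41 ± 0.14 (log2; adjusted p = 0.0334) and inhbb, a subunit of activin B, rose by 0.25 ± 0.08 (adjusted p = 0.0306). Neither was called with the score as a term (adjusted p = 0.926 and 0.375) or with the replicate number as a block (0.0748 and 0.0718). Tgfb2 was not called without a filter on low counts (0.0803), and single libraries decided both calls. The adjusted p of tgfb2 ran up to 0.0869 (without mutant replicate 1) and 0.0838 (without wild-type TCDD replicate 1), and it was lost too without mutant replicate 2 or 4 or wild-type TCDD replicate 3 or 4. That of inhbb ran up to 0.13 without wild-type TCDD replicate 3, and was lost without wild-type TCDD replicate 4 or mutant replicate 2 or 4. The list had 2 genes higher without wild-type TCDD replicate 1. Myostatin b (mstnb) averaged 1.97 ± 0.251 CPM in mutants and 2.25 ± 0.369 CPM in wild type. The paralogs wfikkn2a and wfikkn2b averaged 17.9 ± 1.27 and 1.22 ± 0.251 CPM in mutants, against 20.0 ± 2.4 and 1.17 ± 0.281 CPM in wild type. None of mstnb, wfikkn2a, wfikkn2b, SMAD2, smad7, smad5 and smad9 was called under TCDD.

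**Figure D3:**
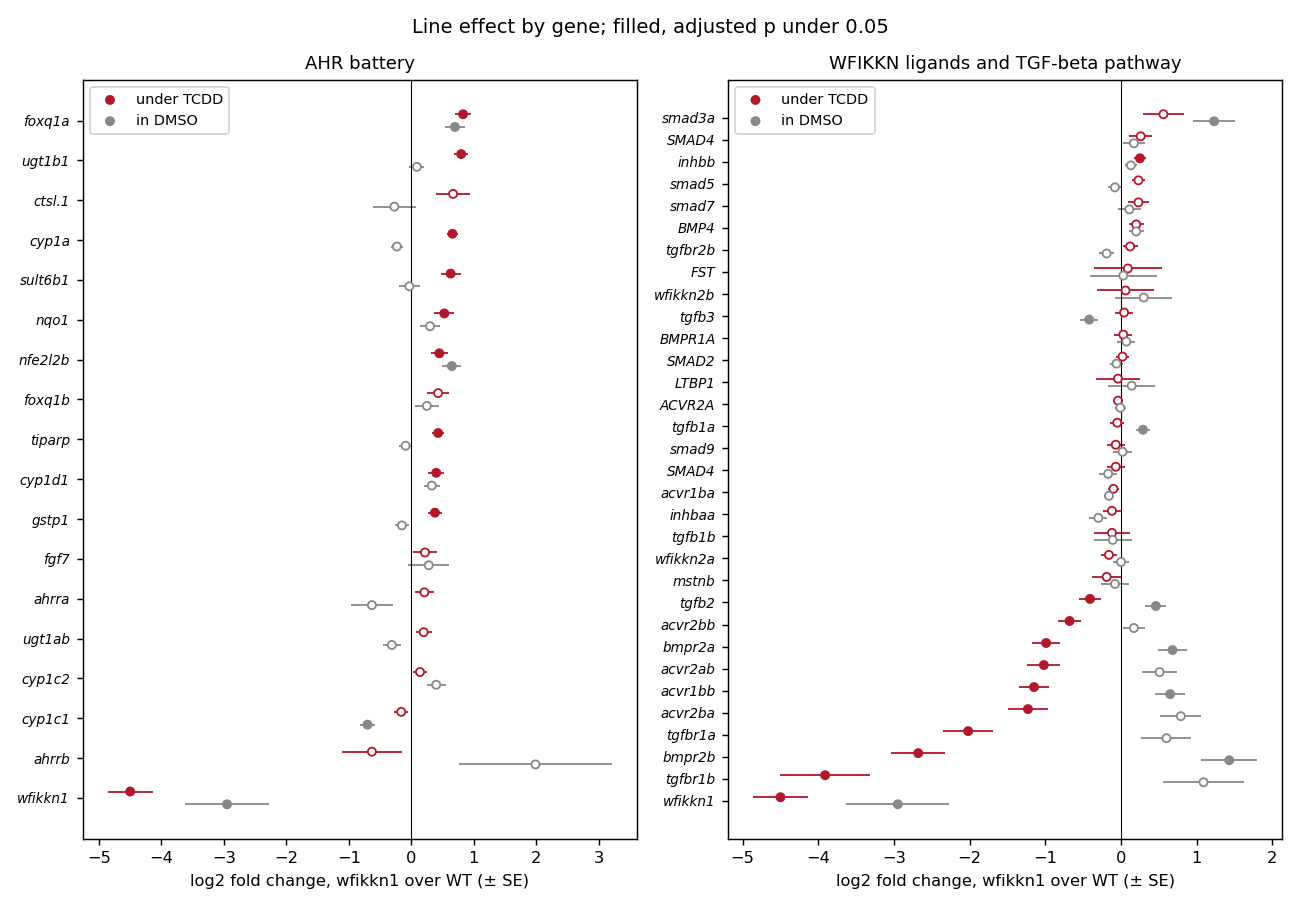
Log2 fold change of wfikkn1 over wild type (± SE) for tested members of the AHR battery (left) and of the TGF-beta list (right), under TCDD (red, upper point of each pair) and in DMSO (grey, lower point); filled points have an adjusted p under 0.05. In the left panel 9 genes are called above 0 under TCDD, and in the right panel the receptor genes from acvr2bb to tgfbr1b lie below 0 under TCDD and above 0 in DMSO.

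Structural genes of the extracellular matrix and the fin fold were often lower. Of 39 tested, 18 fell (46.2%, against 16.9% of all tested genes), 5 rose (12.8%, against 10.7%) and 16 did not pass. The median was -0.27, and 16 had a called negative difference from DMSO. Hspg2, the basement membrane proteoglycan perlecan, had 64.4, 56.7, 75.0 and 64.6 CPM in mutants, against 234, 163 and 157 CPM in wild type under TCDD, and 167, 125, 84.2 and 185 CPM in mutants, against 78.1, 92.7 and 55.3 CPM in wild type in DMSO. Col4a1, a basement membrane collagen, averaged 115 ± 14.3 CPM in mutants and 246 ± 19.6 CPM in wild type. Hmcn2 (ENSDARG00000086060), a hemicentin, had 0.229 ± 0.103 CPM in mutants and 4.37 ± 1.77 CPM in wild type. And1, an actinodin of the fin fold, rose by 0.40 ± 0.06 under TCDD and by 0.38 ± 0.06 in DMSO. With the score as a term 3 of the 39 were called lower and 1 higher. The median axis weight of the list was at the 65.3 percentile.

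Of 19 metalloproteinases and inhibitors, 5 fell (26.3%) and 1 rose (5.26%), against 16.9% and 10.7% of all tested genes. The membrane-type enzyme mmp15b had 1.75, 1.85, 2.32 and 1.32 CPM in mutants, against 43.9, 27.1 and 33.7 CPM in wild type under TCDD. Mmp24, another membrane-type enzyme, had 3.89, 2.87, 7.13 and 4.93 CPM in mutants, against 96.3, 52.2 and 55.4 CPM in wild type. Every mutant library lay below every wild-type library for mmp15b and mmp24, with log2 fold changes of -4.28 ± 0.54 and -3.86 ± 0.52. Both had a called difference, and both were called with the score as a term (-1.95 and -1.40), where 4 of the list were lower and 1 higher. Mmp14b, also a membrane-type enzyme, went the other way, with 36.0, 35.7, 27.7 and 35.8 CPM in mutants, against 19.1, 19.2 and 20.2 CPM in wild type, and its rise of 0.79 ± 0.12 was met by one of 0.71 ± 0.12 in DMSO.

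In the skeleton, 5 of 24 cartilage genes fell and none rose, and of 12 bone genes 2 fell and 1 rose, with 1 that fell without mutant replicate 2 or wild-type TCDD replicate 1, and 1 cartilage gene rose without wild-type TCDD replicate 4. In the fit with the score as a term 2 cartilage genes were lower, and 1 bone gene was lower and 1 higher. Without that term, 20.8% of the cartilage and 16.7% of the bone genes fell, near the 16.9% of all tested genes. Of the bone genes 8.33% rose, against 10.7% of all tested genes. In DMSO 9 of the 24 cartilage genes fell and 2 rose, where 8.6% of all tested genes were lower and 8.21% higher. Acanb, a gene of the cartilage proteoglycan aggrecan, averaged 2.41 ± 0.146 CPM in mutants and 6.71 ± 1.1 CPM in wild type (-1.48 ± 0.22, called the other way in DMSO at 0.96 ± 0.21). Hapln1a, a link protein of aggrecan and hyaluronan, averaged 546 ± 13.5 CPM in mutants and 734 ± 51.2 CPM in wild type. Col1a1a, the main collagen of bone and skin, had 280, 267, 367 and 269 CPM in mutants, against 91.5, 144 and 135 CPM in wild type. It rose by 1.26 ± 0.20 under TCDD and by 0.96 ± 0.20 in DMSO. Col10a1a averaged 103 ± 13.4 CPM in mutants and 154 ± 16.7 CPM in wild type. Summed CPM of the cartilage list was 7260 to 7794 in mutants and 7280 to 7830 in wild type. In RNA of whole embryos, fewer cells of a type and less RNA per cell cannot be told apart.

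Of 22 cardiac muscle genes 7 fell (31.8%, against 16.9% of all tested genes) and 1 rose, with a median of -0.35. In DMSO 6 fell and 1 rose, with a median of -0.3, and 2 of the falls were shared with TCDD. Among all tested genes 8.6% were lower and 8.21% higher in DMSO. The list's summed CPM was 9482 to 10060 in mutants and 12360 to 15600 in wild type under TCDD, without overlap, and 9754 to 11430 in mutants and 10160 to 11370 in wild type in DMSO. The list counts actc1a on both of its IDs. Myh6, the atrial myosin heavy chain, had 9.33, 8.38, 10.7 and 8.42 CPM in mutants, against 17.4, 18.7 and 19.1 CPM in wild type, a log2 fold change of -1.0 ± 0.16. Its values did not overlap under TCDD, and its difference from DMSO was not called (adjusted p = 0.061). Ttn.2, a titin gene of heart and skeletal muscle, averaged 4210 ± 239 CPM in mutants and 6550 ± 981 CPM in wild type, with a called difference (-0.71). The summed CPM of the cardiac list under TCDD averaged 9775 in mutants and 13680 in wild type. A few highly expressed genes can carry such a sum, and it was not computed without ttn.2. Of this list 2 were called lower and 1 higher with the score as a term.

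Of 30 fast muscle genes 6 fell (20.0%) and none rose under TCDD. Of 12 slow muscle genes 2 fell (16.7%) and 1 rose, and both shares of falls were close to the 16.9% of all tested genes. Falls in DMSO were more frequent, with 13 of the 30 fast (1 rose) and 3 of the 12 slow muscle genes (none rose). Among all tested genes 8.6% were lower in DMSO. The slow muscle rise was lost without mutant replicate 1 or 2 or wild-type TCDD replicate 1 or 3, 2 rose without wild-type TCDD replicate 4, and 1 fell without wild-type TCDD replicate 1. Called with the score as a term were 4 fast and 1 slow muscle genes as lower and none as higher. Ckma, the muscle creatine kinase, averaged 58.2 ± 16.9 CPM in mutants and 131 ± 25.7 CPM in wild type under TCDD. It fell by 1.16 ± 0.22 under TCDD and by 0.98 ± 0.22 in DMSO (log2). Ryr3, a calcium release channel, averaged 606 ± 19.4 CPM in mutants and 1210 ± 272 CPM in wild type, and myhz2, a fast myosin heavy chain, 3060 ± 98.5 CPM in mutants and 3970 ± 198 CPM in wild type. The summed fast muscle CPM overlapped between the lines under TCDD (76330 to 84890 in mutants, 78240 to 92720 in wild type). Among 17 regulators of muscle formation, 6 fell (35.3%) and 3 rose (17.6%), against 16.9% and 10.7% of all tested genes. The number that fell was 3 without mutant replicate 2 or without wild-type TCDD replicate 1, and 2 fell and none rose with the score as a term. Mef2ca, a transcription factor of heart and muscle differentiation, had 192, 226, 214 and 217 CPM in mutants, against 453, 393 and 445 CPM in wild type. It fell by 1.02 ± 0.09 under TCDD and by 0.98 ± 0.09 in DMSO, with a difference of -0.04 (adjusted p = 0.896). Six1b fell under both exposures as well, by 1.11 ± 0.16 and 0.76 ± 0.16 (log2).

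Of 22 red blood cell genes, 9 fell (40.9%) and none rose under TCDD, against 16.9% and 10.7% of all tested genes. The median was -0.48. In DMSO 11 fell, 6 of them the same as under TCDD, where 8.6% of all tested genes were lower in DMSO. Summed CPM of the list was 1556 to 1867 in mutants and 2408 to 3001 in wild type under TCDD, and 1386 to 1623 in mutants and 2425 to 2794 in wild type in DMSO. Hbae3, an embryonic alpha globin, had 344, 302, 351 and 415 CPM in mutants, against 570, 715 and 790 CPM in wild type. It fell by 0.97 ± 0.15 under TCDD and by 1.46 ± 0.15 in DMSO. Epb41b, a protein of the red cell membrane skeleton, fell by 0.91 ± 0.16 and 1.06 ± 0.16. Sptb, the erythroid beta spectrin, averaged 98.5 ± 10.8 CPM in mutants and 222 ± 8.54 CPM in wild type under TCDD and was not called in DMSO (0.13 ± 0.15, difference -1.30, adjusted p = 0.000563). In the absence of wild-type TCDD replicate 4, 1 gene of the list rose. In the fit with the score as a term 3 of the 22 were called lower, hbae3 and sptb among them.

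Of 26 vascular genes 5 fell (19.2%) and 2 rose (7.69%), shares near those of all tested genes (16.9% lower and 10.7% higher), and 0 or 1 rose when any 1 of the 7 libraries was left out (0 without mutant replicate 2 or 3 or wild-type TCDD replicate 1 or 4). Stab1, a scavenger receptor of endothelium, had 21.1, 21.5, 23.2 and 21.5 CPM in mutants, against 46.4, 41.7 and 42.3 CPM in wild type, and notch1b, a receptor of cell fate, averaged 65.6 ± 13.6 CPM in mutants and 200 ± 23.8 CPM in wild type. Both had a called negative difference from DMSO. Of 22 leukocyte genes 2 rose (9.09%), among them rac2, a GTPase of neutrophils (0.43 ± 0.10), and none fell, while 1 rose and 1 fell without wild-type TCDD replicate 3. Of 22 pigment cell genes 6 fell (27.3%) and 1 rose, and 8 fell in DMSO, with 5 shared. That rise was lost without mutant replicate 1, 2 or 4 or wild-type TCDD replicate 1 or 4. The fit with the score as a term called 1 vascular and 2 pigment cell genes lower, and no vascular, leukocyte or pigment cell gene higher. Tyr, the tyrosinase of melanin synthesis, had 41.7, 38.7, 40.8 and 40.5 CPM in mutants, against 61.6, 72.5 and 66.8 CPM in wild type. It fell by 0.73 ± 0.09 under TCDD and by 0.42 ± 0.09 in DMSO, and stayed called with the score as a term. Slc24a5, a cation exchanger of melanosomes, fell by 0.77 ± 0.15 and 0.53 ± 0.15.

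In the nervous system and the eye, few genes were called. Of 28 neuronal genes 3 fell (10.7%) and 2 rose (7.14%), against 16.9% and 10.7% of all tested genes. The number that rose was 1 without mutant replicate 1 or 3 or wild-type TCDD replicate 3, and none rose without wild-type TCDD replicate 1. Slc17a6a, a vesicular glutamate transporter, had 11.6, 11, 14.4 and 14 CPM in mutants, against 35.6, 31.7 and 31.8 CPM in wild type, with a called difference (-1.95). Cacna1ab, a presynaptic calcium channel, averaged 4.89 ± 0.872 CPM in mutants and 24.1 ± 14.4 CPM in wild type. Of 15 glial genes 4 rose (26.7%, against 10.7% of all tested genes) and none fell. Mbpa, myelin basic protein, had 2.88, 2.29, 1.67 and 3.03 CPM in mutants, against 0.849, 1.59 and 0.598 CPM in wild type, and gfap, a filament of radial glia, averaged 447 ± 20.0 CPM in mutants and 349 ± 27.4 CPM in wild type. The number of glial genes that rose was 1 without wild-type TCDD replicate 1 and 2 without mutant replicate 1 or 2. The call of gfap was lost without wild-type TCDD replicate 1 (adjusted p = 0.0519), and no glial gene was called with the score as a term. Of 24 lens crystallin genes 3 fell (12.5%) and 1 rose (4.17%), against 16.9% and 10.7% of all tested genes. In DMSO 8 fell. None rose under TCDD without mutant replicate 1, 3 or 4 or wild-type TCDD replicate 4. Crygm2d1 and crygm2d2 belong to a multigene family whose members share sequence, so their separate values are uncertain. They fell by 0.70 ± 0.17 and 0.84 ± 0.22 under TCDD. Of 14 photoreceptor genes 2 rose (14.3%) and 1 fell (7.14%), against 10.7% and 16.9% of all tested genes. None rose without mutant replicate 1 or wild-type TCDD replicate 1 or 4, 1 rose without mutant replicate 4, and none fell without mutant replicate 2 or wild-type TCDD replicate 3 or 4. The fit with the score as a term called 2 neuronal, 2 lens and 1 photoreceptor genes lower and none higher.

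In the skin, 6 of 25 epidermal genes rose (24.0%) and 5 fell (20.0%), against 10.7% and 16.9% of all tested genes. The number that fell was 3 without wild-type TCDD replicate 4. Krt1-19d, a keratin, had 35.6, 34.2, 42.3 and 36.1 CPM in mutants, against 16.5, 25.9 and 22.4 CPM in wild type, with a called difference (0.88). Cldni, a claudin, averaged 3.15 ± 0.106 CPM in mutants and 1.52 ± 0.196 CPM in wild type and also had a called difference (1.02). Anxa1b, an annexin, had 457, 164, 131 and 114 CPM in mutants, against 61.6, 75.0 and 72.1 CPM in wild type. Of the 4 mutant values that of replicate 1 stood far above the others, and the other 3 also lay above wild type. Of 6 hatching gland genes 2 rose (33.3%, against 10.7% of all tested genes) and none fell. He1.2, a hatching enzyme, averaged 116 ± 12.2 CPM in mutants and 58.0 ± 15.4 CPM in wild type, and rose by 1.00 ± 0.16 under TCDD and by 0.73 ± 0.16 in DMSO. Of 24 ionocyte and prolactin genes 5 fell (20.8%) and 2 rose (8.33%), near the shares of all tested genes (16.9% and 10.7%). Of 4 exocrine pancreas genes 2 rose (50.0%, against 10.7% of all tested genes). The number that rose was 1 for ionocytes without mutant replicate 1 or wild-type TCDD replicate 1, 1 for the hatching gland without mutant replicate 1 or 2 or wild-type TCDD replicate 3, and 1 for the pancreas without any 1 of the 7 libraries except mutant replicate 2. With the score as a term 1 epidermal gene was higher and 3 lower, 2 hatching gland genes were higher, 1 ionocyte gene was lower and no pancreas gene was called.

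**Figure D4:**
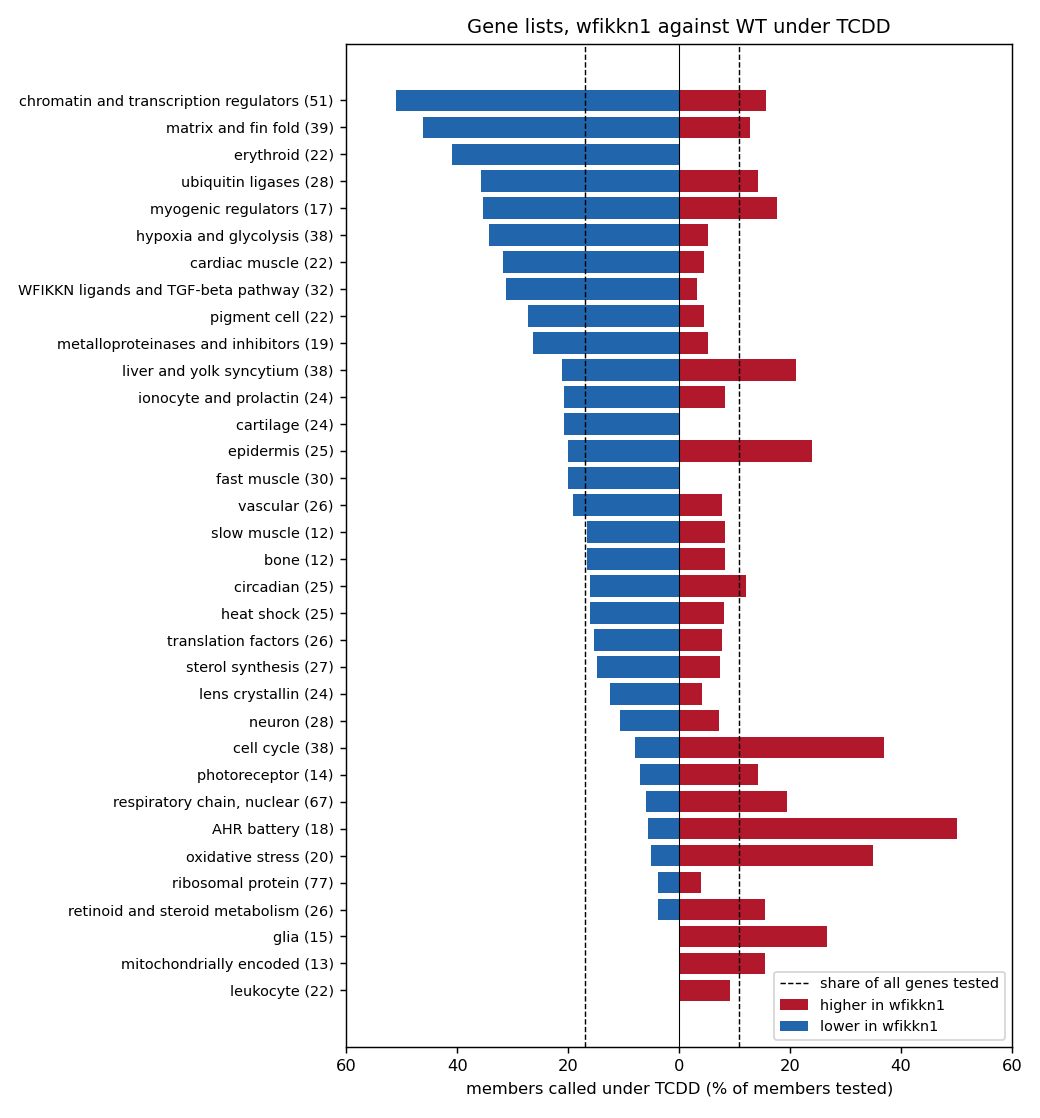
Share of the tested members of each gene list (number tested in parentheses) called higher (red, right of 0) or lower (blue, left of 0) in wfikkn1 than in wild type under TCDD, with dashed lines at the shares among all genes tested (10.7% higher and 16.9% lower); lists with fewer than 10 tested members are left out. Chromatin, matrix and erythroid genes reach farthest to the left and the AHR battery, cell cycle and oxidative stress farthest to the right.

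Genes of oxygen sensing and glycolysis were lower more often than higher in both exposures. Of 38 tested, 13 fell (34.2%) and 2 rose (5.26%), against 16.9% and 10.7% of all tested genes. The median was -0.23, and 16 fell in DMSO, 8 of them shared. Egln2 and egln3, prolyl hydroxylases that mark hypoxia-inducible factor for destruction, fell by 2.37 ± 0.28 and 1.32 ± 0.19 (log2). Egln2 had 7.19, 7.67, 8.62 and 8.80 CPM in mutants, against 50.3, 28.3 and 46.5 CPM in wild type, and was not called in DMSO (0.55 ± 0.28). Egln3 averaged 16.9 ± 1.88 CPM in mutants and 42.3 ± 17.6 CPM in wild type, and fell by 1.05 ± 0.19 in DMSO too. Pfkla, a phosphofructokinase, had 1.79, 3.70, 4.17 and 4.96 CPM in mutants, against 18.7, 16.0 and 17.3 CPM in wild type. Pgam1b, a phosphoglycerate mutase, was higher in every mutant library, with 62.1, 61.7, 54.5 and 63.2 CPM in mutants, against 32.5, 35.7 and 31.9 CPM in wild type. With the score as a term 9 of the list were called lower and 2 higher.

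Of 67 nuclear genes of the respiratory chain 13 rose (19.4%) and 4 fell (5.97%), against 10.7% and 16.9% of all tested genes. The median was 0.19, and 6 had a called positive difference from DMSO, where 1 rose and 10 fell. Atp5fa1, a subunit of ATP synthase, had 631, 738, 641 and 677 CPM in mutants, against 445, 490 and 475 CPM in wild type (0.52 ± 0.11, difference 0.54). Uqcrc1, a core protein of complex III, averaged 12.6 ± 3.51 CPM in mutants and 25.3 ± 1.28 CPM in wild type, and fell under both exposures. The number that rose was 8 without mutant replicate 2 or 4, 7 without wild-type TCDD replicate 1, and 1 with the score as a term, where 6 fell. Of 13 mitochondrially encoded genes 2 rose (15.4%, against 10.7% of all tested genes). The number was 1 without mutant replicate 3 or 4 or wild-type TCDD replicate 1 or 4, or with the score as a term. Mt-atp6 had 2170, 2220, 2260 and 2170 CPM in mutants, against 1430, 1700 and 1510 CPM in wild type, with a called difference (0.33).

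Of 20 oxidative stress genes 7 rose (35.0%) and 1 fell (5.0%), against 10.7% and 16.9% of all tested genes. The number that fell was 2 without mutant replicate 3 or 4 or wild-type TCDD replicate 4. Txnrd3, a thioredoxin reductase, had 220, 229, 201 and 220 CPM in mutants, against 167, 177 and 174 CPM in wild type. Txn, a thioredoxin, averaged 1.40 ± 0.460 CPM in mutants and 5.40 ± 1.98 CPM in wild type, and fell by 1.93 ± 0.36 under TCDD and 2.73 ± 0.39 in DMSO. Another ID named TXN (ENSDARG00000031435) was not called under TCDD (0.065, adjusted p = 0.737) and was lower in DMSO (-0.455, adjusted p = 0.0167). Of 38 genes of liver and yolk syncytial layer 8 rose and 8 fell (21.1% each), against 10.7% and 16.9% of all tested genes. The number that rose was 5 without wild-type TCDD replicate 1. F5, coagulation factor V, had 28.5, 25.4, 26.7 and 25.8 CPM in mutants, against 69.1, 64.4 and 55.3 CPM in wild type, and its fall of 1.24 ± 0.13 was larger than that of 0.48 ± 0.13 in DMSO (difference -0.76, adjusted p = 0.0108). Of 27 sterol synthesis genes 4 fell (14.8%, against 16.9% of all tested genes) and 2 rose (7.41%, against 10.7%), with 1 rising without mutant replicate 3 and none without mutant replicate 2 or wild-type TCDD replicate 1. Srebf1, a regulator of lipid synthesis, averaged 16.0 ± 2.16 CPM in mutants and 39.3 ± 5.55 CPM in wild type. Of 26 retinoid and steroid genes 4 rose (15.4%) and 1 fell (3.85%), against 10.7% and 16.9% of all tested genes. Rdh10a, an enzyme of retinoic acid synthesis, had 22.4, 25.8, 20.2 and 24.2 CPM in mutants, against 13, 13.3 and 13.9 CPM in wild type, and crabp2b, a retinoic acid binding protein, averaged 143 ± 9.91 CPM in mutants and 82.1 ± 12.8 CPM in wild type. Both rose in DMSO as well. The 4 that rose were 2 without wild-type TCDD replicate 1, and none fell without mutant replicate 1 or 3 or wild-type TCDD replicate 1 or 3. The fit with the score as a term called 2 oxidative stress genes higher and 1 lower, 1 liver gene higher and 3 lower, 1 sterol gene lower and 2 retinoid genes lower.

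Chromatin and transcription regulators had the largest share of falls among the lists with at least 10 tested members. Of 51 tested, 26 fell (51.0%) and 8 rose (15.7%), against 16.9% and 10.7% of all tested genes. The median was -0.30, and 20 had a called negative difference from DMSO. Kmt2a, a histone H3 lysine methyltransferase, had 65.6, 55.7, 65.8 and 67.9 CPM in mutants, against 211, 126 and 137 CPM in wild type under TCDD, and 155, 126, 103 and 158 CPM in mutants, against 101, 106 and 78.0 CPM in wild type in DMSO. Kdm6bb, a histone demethylase, had 139, 129, 163 and 153 CPM in mutants, against 337, 316 and 315 CPM in wild type. Kmt2a and kdm6bb had axis weights at the 93.5 and 94.6 percentiles, and both were called with the score as a term (-0.68 and -0.46), where 5 of the list were lower and none higher. The number that rose was between 2 (without wild-type TCDD replicate 1) and 6 when any 1 library of the 7 was left out. It was 5 without mutant replicate 1 or wild-type TCDD replicate 4 and 4 without mutant replicate 2, 3 or 4.

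Of 28 ubiquitin ligases 10 fell (35.7%) and 4 rose (14.3%), against 16.9% and 10.7% of all tested genes. The number that fell was 6 without wild-type TCDD replicate 1, and 1 was lower and 2 higher in the fit with the score as a term. Itchb, a ligase of the ITCH family, had 1.36, 0.882, 1.53 and 1.67 CPM in mutants, against 21.1, 12.8 and 15.8 CPM in wild type under TCDD, and 18.7, 9.53, 4.01 and 23.2 CPM in mutants, against 4.67, 5.42 and 0.980 CPM in wild type in DMSO. Of 25 circadian genes 4 fell and 3 rose, and 12% rising is near the 10.7% of all tested genes. Clocka, a core clock activator, had 3.03, 1.81, 2.92 and 3.34 CPM in mutants, against 22.2, 16.7 and 17.4 CPM in wild type, and tefa, a clock-controlled factor, averaged 37.6 ± 4.02 CPM in mutants and 20.5 ± 1.61 CPM in wild type. Without wild-type TCDD replicate 4, 2 circadian genes fell and 1 rose, and 1 rose without wild-type TCDD replicate 1. Of 25 heat shock genes 4 fell (16.0%) and 2 rose (8.0%), near the shares of all tested genes (16.9% and 10.7%). Without wild-type TCDD replicate 1, 2 fell and 1 rose, and 5 rose without wild-type TCDD replicate 3. Hsp70l, an inducible chaperone, had 0.971, 0.485, 1.3 and 1.09 CPM in mutants, against 3.80, 2.54 and 3.63 CPM in wild type, and fell under both exposures. The fit with the score as a term called 2 circadian genes higher and 2 lower, and 2 heat shock genes lower.

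Of 38 cell cycle genes 14 rose (36.8%) and 3 fell (7.89%), against 10.7% and 16.9% of all tested genes. Rrm2 counts once in each direction, and the median was 0.25. In DMSO 6 rose and 4 fell, and no member had a called positive difference. Mcm7, a subunit of the replicative helicase, had 62.9, 79.5, 67.6 and 66.7 CPM in mutants, against 35.4, 41.6 and 49.4 CPM in wild type (0.72 ± 0.13). Ccnb1, the mitotic cyclin B1, had 92.8, 110, 91.5 and 96.2 CPM in mutants, against 68.8, 67.5 and 70.1 CPM in wild type (0.50 ± 0.10). The number that rose was 9 without wild-type TCDD replicate 1 and 2 with the score as a term. Ribosomal protein genes were mostly not called, with 3 higher, 3 lower and 71 not called of 77. The shares were 3.9% each way, against 10.7% higher and 16.9% lower of all tested genes. Without wild-type TCDD replicate 4, 5 were higher and 1 was lower, without mutant replicate 3, 1 was lower, and with the score as a term 10 were lower and 2 higher. Rpl37 rose by 0.99 ± 0.22 and rpl5b fell by 0.80 ± 0.19. Of 26 translation factors 4 fell (15.4%) and 2 rose (7.69%), near the shares of all tested genes (16.9% and 10.7%). The number that rose was 1 without mutant replicate 1, 2 or 4 or wild-type TCDD replicate 1 or 3. In the fit with the score as a term 5 fell and none rose. Eif4ebp3l, a repressor of cap-dependent translation, averaged 31.1 ± 1.3 CPM in mutants and 48.4 ± 5.50 CPM in wild type and fell under both exposures.

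Genes with a line effect under both exposures were more frequent near wfikkn1 itself than among all placed genes, as a description without a test. Gene order came from another assembly (GRCz12tu) than the one the counts were made on, and 16668 of the tested genes (82.9%) had a place there. Wfikkn1 stands on chromosome 1, with 699 of the 702 tested genes at distinct positions before it. Called in the same direction under both exposures were 6.8% of all placed genes and 10.7% of those on chromosome 1. Among the 102 genes within 100 places of wfikkn1 it was 25 (24.5%), and among the 27 within 25 places it was 6 (22.2%). The next highest share by chromosome was 10.3%, on chromosome 20.

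The 6 genes within 25 places included adgre5b.2, an adhesion G protein-coupled receptor, for which the fit gave falls of 3.84 ± 0.55 under TCDD and 3.71 ± 0.57 in DMSO. Its mutant libraries held 5, 3, 0 and 2 counts under TCDD and 1, 3, 1 and 4 counts in DMSO. These were at or close to the limit of detection, so the size of its falls is not a measured fold. Mvb12a, a subunit of the endosomal sorting complex ESCRT-I, fell by 0.62 ± 0.14 and 0.91 ± 0.15, and olfm2b, an olfactomedin, rose by 0.46 ± 0.16 and 0.52 ± 0.16. The other 3 have clone names and rose. Of these, si:ch211-15j1.4 had 1.75, 1.37, 1.2 and 1.86 CPM in mutants, against 0.0447, 0 and 0 CPM in wild type under TCDD. Si:dkey-222h21.2 had 3.07, 2.51, 2.04 and 2.64 CPM in mutants, against 0, 0.0397 and 0.046 CPM in wild type. Each wild-type library held at most 1 count of either gene, so no fold is given. The last of the 3, zgc:194906, rose by 3.61 ± 0.43 in the fit. Its wild-type TCDD libraries held 3, 2 and 7 counts, close to the limit of detection, so the size of that rise is uncertain. Ldb2b and tapt1b, named above for their falls, also stand on chromosome 1 but far from wfikkn1. Their places in gene order relative to wfikkn1 were -456 and -457, where negative means before it. Other genes around them were also called lower under both exposures, such as prom1b (-458), msmo1 (-472) and cpe (-473). Genes called under both exposures thus also stood together far from wfikkn1, and shares for other stretches of the chromosome were not computed. For none of the 6 was the difference between the exposures called.

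**Figure D5:**
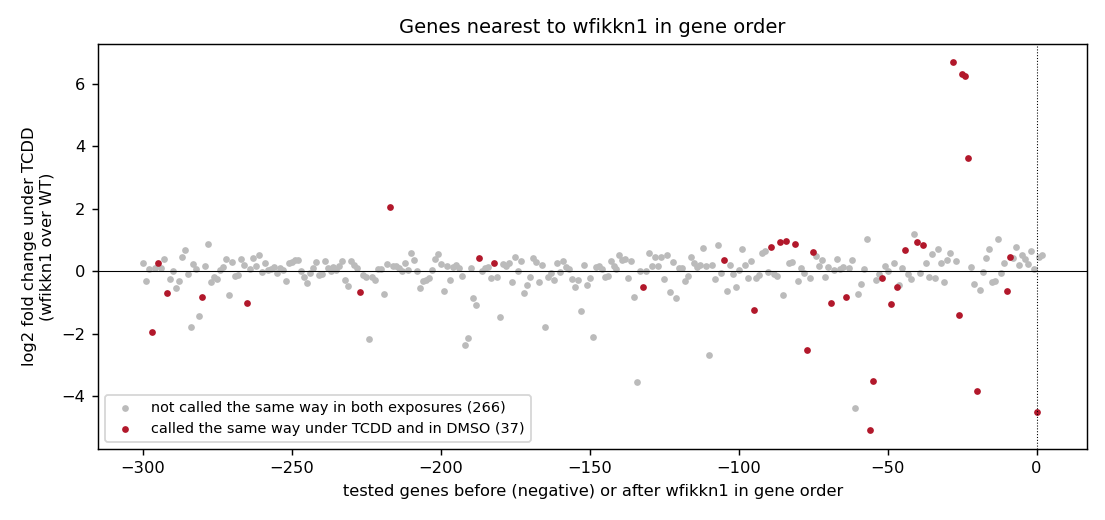
Log2 fold change of wfikkn1 over wild type under TCDD for the tested genes nearest to wfikkn1 on its chromosome. They stand by their place before (negative) or after wfikkn1 in gene order. Genes called in the same direction under both exposures are red. The rest of the chromosome is not drawn. Red points are denser within 100 places of wfikkn1, where they are 25 of 102 genes. The points above 6 have almost no wild-type counts, so their height is not a measured fold.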

How the data were processed

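RNA of pooled whole embryos was sequenced from stranded poly(A) libraries. Per the submitters' processing notes the assembly was GRCz11 and the tools included HTSeq 0.12.4, edgeR, HISAT2 2.2.0, cutadapt 1.8.1 and SAMtools 1.10. The annotation release and the strand setting of the counting are not given in the sources used here, so reads of a gene and an overlapping or antisense gene may not be separable. The authors deposited raw counts per gene for 14 libraries, and tables of their own comparisons with log2 ratios, an F score and p-values, which list called genes alone and were used here for gene names and for the count of shared calls.

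The counts of all 14 libraries were fitted with edgeR 4.0.16 in R 4.3.3 (TMM scaling, its default filter on low counts, 1 mean per group, quasi-likelihood test) and p-values were adjusted by Benjamini-Hochberg over 20098 genes, with 0.05 as the threshold. The 12422 genes with too few counts were not tested. The SE is the size of the log2 fold change divided by the square root of F. The difference of line effects was tested in the same fit as an interaction. CPM used TMM-scaled library sizes. The script was tested on simulated counts. The library score is the first axis of log2 CPM (prior count 2) within groups, computed from the 15374 genes whose mean log2 CPM reached 1. Axis weights are given as percentiles of their signed value. A low percentile may therefore be a strong weight in the opposite direction and not a small one. Because the score comes from the same counts, a fit with it is a description of how far results move with it.

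Total counts per library were 20597475 to 26884477, so 3 counts, taken as the limit of detection, are 0.11 to 0.145 CPM. Libraries of the same group differed by more than sampling noise. The members of the comparison and all 37 gene lists were chosen with earlier results of these data known. Genes were named by rule: wfikkn1, the 12 largest rises and falls without overlap, the 5 smallest adjusted p in each direction, 8 for the difference, 5 in each direction for both exposures, and up to 4 called members of a list. All tested members of the AHR battery and all called members of the Wfikkn and TGF-beta list were named too. A subset of those genes is described, and others of the TGF-beta list and of the AHR partners, named for their role, were chosen after their values were seen. Gene order and chromosomes came from assembly GRCz12tu and were looked up by gene name, so IDs that share a name share a place. Promoter motifs and protein lengths were not analysed here. Alternatives were limma-voom (limma 3.58.1), DESeq2 1.42.0, other scalings, filters and terms, and each library left out.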

Additional observations from a re-analysis of the deposited data

Results flagged for a closer look

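Among 132 groups of 4 libraries tested for a library far from the other 3, 11 were flagged, and chance flags about 1 in 20 such groups. The groups tested were the 4 mutant TCDD libraries, for 128 genes and 4 measures of the library. Replicate 3 was highest for tgfbr1b (3.43 CPM), kank2 (3.01 CPM), dcc (6.30 CPM), slc24a5 (42.8 CPM) and col1a1a (367 CPM), and lowest for mmp14b (27.7 CPM). Its library score, -12.3, was also the highest of the 4. Replicate 1 was highest for ugt1ab (54.3 CPM) and anxa1b (457 CPM) and lowest for ldb2b (0.194 CPM). Replicate 4 was highest for tapt1b (0.427 CPM), and replicate 2 was lowest for ndufs7 (7.45 CPM).

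The line effect differed between TCDD and DMSO by the test of the difference in 372 genes in the positive and 2044 genes in the negative direction. Of the genes considered for the text 53 had such a difference, given here on the log2 scale as TCDD minus DMSO. The most negative were CSRNP3 (-6.74), tfe3a (-6.71), mmp24 (-5.65), itchb (-5.50), hmcn2 (-5.44), mmp15b (-5.43), kank2 (-5.37), tgfbr1b (-5.0), ism2a (-4.29), bmpr2b (-4.11), sh3pxd2aa (-3.63), crim1 (-3.25) and clocka (-3.08). Next came egln2 (-2.92), cacna1ab (-2.82), tgfbr1a (-2.62), acanb (-2.43), dcc (-2.43), hspg2 (-2.40), nfixb (-2.37), itga9 (-2.26), notch1b (-2.21), acvr2ba (-2.02), slc17a6a (-1.95), srebf1 (-1.83) and kmt2a (-1.82). The smaller negative ones were acvr1bb (-1.80), bmpr2a (-1.68), pfkla (-1.56), kdm6bb (-1.54), acvr2ab (-1.53), col4a1 (-1.50), nyap2b (-1.49), stab1 (-1.35), sptb (-1.30), ryr3 (-1.21), tgfb2 (-0.87), acvr2bb (-0.85), f5 (-0.76), ttn.2 (-0.71), ahr1b (-0.65), myha (-0.54) and ahr2 (-0.38). Positive differences were those of cyp1c1 (0.54), gfap (0.46), gstp1 (0.53), tiparp (0.51), mt-atp6 (0.33), atp5fa1 (0.54), cyp1a (0.89), krt1-19d (0.88), ugt1b1 (0.71) and cldni (1.02). None of these differences was called with the library score as a term. The score runs along the same difference, so that fit cannot decide about them, and the part of the score in them was not tested.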

How the results depend on the processing

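Under TCDD the direction of wfikkn1 held in the alternatives that tested it, which leaves out the filter at 1 CPM, with log2 fold changes of -4.79 to -4.18 over left-out libraries. Leaving out 1 library gave 1430 to 1859 genes higher and 2609 to 3163 lower under TCDD, 928 to 1877 higher and 1136 to 1595 lower in DMSO, and 132 to 609 positive and 1623 to 2233 negative differences. With the library score as a term 451 genes were higher and 780 lower under TCDD, 819 higher and 1015 lower in DMSO, and 0 differences were called in either direction. The score runs along that difference, so the last count does not decide whether differences remain. Requiring at least 2-fold changes gave 378 higher and 1646 lower under TCDD, 610 higher and 584 lower in DMSO, and 46 positive differences. Fitting only the groups compared gave 1003 genes higher in DMSO. Positive differences were 571 without a filter, 779 with a filter at 1 CPM and 832 with DESeq2. Under TCDD RLE scaling gave 2548 higher and 3176 lower, limma-voom 2209 and 3365, DESeq2 2801 and 3292, no filter 2449 and 3130, and the 1 CPM filter 2850 and 2868. A term that split the samples by the S number of their titles, above 8 or not, gave 2173 and 3334. The share of calls that were higher moved from 38.9% to 49.8% under the 1 CPM filter. The cause of these shifts was not tested. Of the 128 genes considered for the text, 120 were called, and with the score as a term 71 of these kept their direction and call and 49 lost the call. Of the other 8, 2 changed sign, fgf7 (-0.14, adjusted p = 0.9) and ctsl.1 (-0.10, adjusted p = 0.921). Outside those, scap changed sign to 0.04 (adjusted p = 0.924). Over left-out libraries 9 of the 128 lost a call at least once. Same-numbered mutant and wild-type TCDD libraries had correlations of their deviations from group means of 0.154, 0.0806 and -0.178. The best match among wild-type TCDD libraries had the same number for mutant replicates 1 and 3 and not for replicate 4. So few correlations cannot decide whether the numbers pair samples. With the replicate number as a block 1792 genes were higher and 2952 lower under TCDD, 1324 and 1427 in DMSO, and 317 and 1901 had a positive or negative difference, with wfikkn1 at -4.34. Of the 120 genes 5 lost their call under the block, among them tgfb2, ahr2, inhbb and cyp1d1. Depth limited genes such as mhc1uba and casp6, which had at most 4 counts in each library of 1 line under TCDD.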
